A study of Zea mays with 9 samples.

Results

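Maize (Zea mays) seedling leaves infiltrated with the peptide Zip1 were compared with leaves infiltrated with the mock solution 6 h after treatment, over all genes of the deposited count table. The 3 Zip1 and 3 mock libraries were chosen by their labels out of 9 libraries in the series. The other 3 libraries came from leaves infiltrated with salicylic acid (SA), and they enter the fit and a direct comparison of Zip1 with SA. All 9 came from the cultivar Golden Bantam. Seedlings were 8 days old, the 2nd leaf was cut, and vacuum at 60 mbar drew in 5 µM Zip1 for the Zip1 group, 2 mM SA for the SA group, or water with 0.1% of the solvent dimethyl sulfoxide (DMSO) for the mock group. The labels do not say if DMSO was present in the Zip1 or SA solution. Cutting and infiltration were shared by all groups, and no untouched leaf is analysed here. The labels do not say how many leaves made up a library or if replicates came from separate plants, so the p-values measure the spread between these libraries, which may be technical in part.

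Phytocytokines are small peptides that plant cells cut from precursor proteins and release to prime neighbouring cells for defence. They are read at the cell surface by receptor kinases, whose activation is followed by calcium signals, kinase cascades and new transcription, with WRKY, NAC and ERF factors among the early responders. Zip1 is such a peptide of maize. It is released from its precursor PROZIP1 by papain-like cysteine proteases and is known for raising SA in maize leaves. The gene of the precursor is not analysed here. Chaperones, conjugating enzymes such as UDP-glycosyltransferases and glutathione S-transferases, and secreted chitinases and glucanases are common parts of plant responses to pathogens and elicitors.

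Of 39755 genes in the table, 23077 passed the filter on low counts and were tested. Of these, 204 (0.884%) were called between Zip1 and mock leaves. With Zip1, 190 genes (0.823% of those tested) were higher and 14 (0.0607%) were lower than in mock leaves at an adjusted p under 0.05 in edgeR's quasi-likelihood test, which is what "called", "rose" and "fell" mean here. Of the called genes, 180 rose and 11 fell by at least 1 on the log2 scale. The median log2 fold change was 1.73 over the genes that rose and −1.24 over those that fell, against −0.01 over all tested genes. For each of the 204 called genes the 3 Zip1 libraries and the 3 mock libraries did not overlap. Over all tested genes this was so for 10.3% with Zip1 higher and for 7.35% with Zip1 lower. At an unadjusted p under 0.05, 7.54% of tested genes were higher and 3.96% lower. In bulk leaf tissue, fewer cells of a type and less RNA per cell cannot be told apart.

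**Figure D1:**
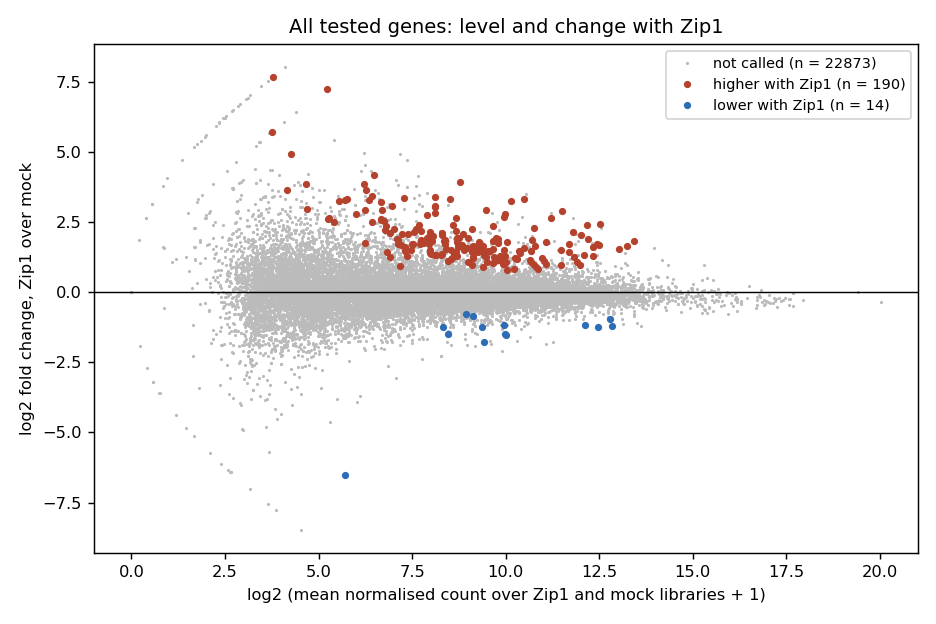
Each point is a tested gene, with the log2 of its mean normalised count over Zip1 and mock libraries plus 1 on the x axis and its log2 fold change, Zip1 over mock, on the y axis. The 190 genes called higher (red) lie between 3 and 14 log2 units of level, the 14 called lower (blue) are few, and most of the 22873 genes not called (grey) lie near 0.

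The calls depended on single libraries. No gene was called in edgeR's test without mock replicate 1, where the smallest adjusted p was 0.0646 and 2184 genes had an unadjusted p under 0.05. In that fit all 204 genes had the same direction and an unadjusted p under 0.05, and the DESeq2 Wald test, added after the data had been seen, called 550 genes without that library, all 204 among them. The 204 genes had been selected with these same libraries, so neither result is independent support. With 1 Zip1 library left out, edgeR called 117 (replicate 1), 56 (replicate 2) or 102 genes (replicate 3). It called 41 when mock replicate 2 was the one left out, and 164 when it was mock replicate 3. Every statement below that a gene rose or fell therefore rests on the fit to all 9 libraries.

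**Figure D2:**
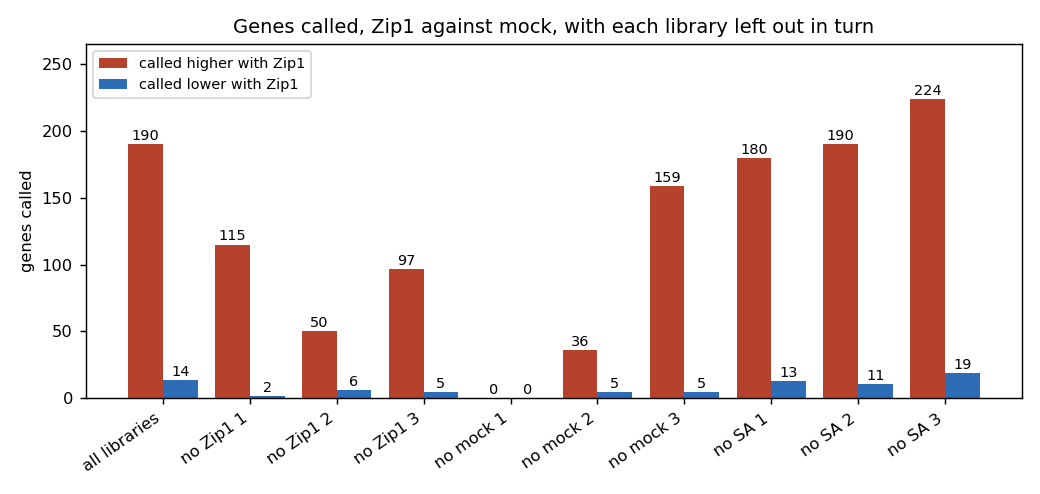
Bars give the number of genes called higher (red) and lower (blue) with Zip1 against mock, on an axis from 0, for all libraries and with each library left out in turn. The count of genes called higher is 190 with all libraries; it drops to 50 when Zip1 replicate 2 is left out, to 36 for mock replicate 2 and to 0 for mock replicate 1.

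Gene groups were made from the words of the protein names and Pfam domains that the count table pairs with its genes, in 90 lists ordered by role. A list stands for the words matched, so a related gene can be outside it, and a gene can be in several lists. Called counts of a list are to be read beside those over all 23077 tested genes. There edgeR called 0.823% higher and 0.0607% lower, and DESeq2 called 708 genes higher and 222 lower. Of the 204 called genes 93 were in a list and 111 in none, and 12 had neither a protein name nor a Pfam domain. A called gene was found in 44 of the 90 lists. Secondary metabolism held most of them, with 19 genes higher and 2 lower of 644 tested, and 21.4% of its tested genes were higher at an unadjusted p under 0.05. Proteolysis and protein quality had 15 higher and 0 lower of 799, transport 14 higher and 1 lower of 539, and transcription factors 11 higher and 0 lower of 733. None of the 168 tested cell wall genes of the lists was called by edgeR, with 8 higher and 6 lower at an unadjusted p under 0.05, and DESeq2 called 4 higher and 0 lower. Genes that are named without having passed, and called genes said to be so, were chosen after their values were seen. The others follow a rule given with the processing. A protein name is that of the database entry paired with the gene, in many cases from rice, Arabidopsis or another plant, and is no maize gene symbol.

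**Figure D3:**
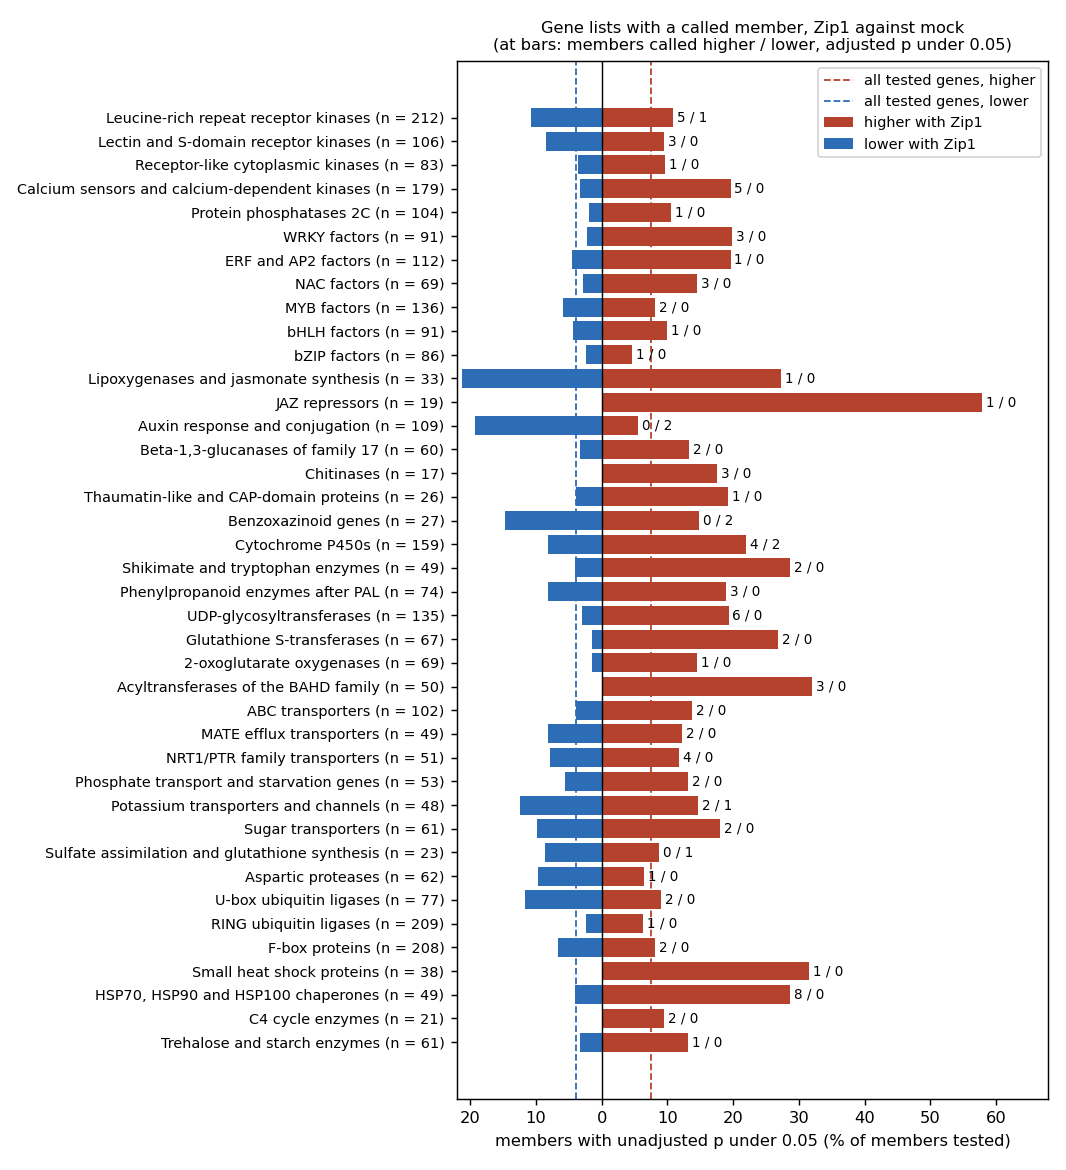
For each list with at least 15 tested members and at least 1 called member, bars give the percentage of tested members with an unadjusted p under 0.05 that were higher (red, to the right) or lower (blue, to the left) with Zip1, and dashed lines give the percentages over all tested genes, 7.54% higher and 3.96% lower. Numbers at the bars are members called higher and lower; the longest bar to the right belongs to the JAZ repressors (11 of 19), and the auxin list is among those longer to the left than to the right.

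Receptor kinases with leucine-rich repeats, the class that reads many peptides and microbial patterns, moved in both directions. Of 212 tested members 5 rose and 1 fell, and DESeq2 called 11 higher and 9 lower. At an unadjusted p under 0.05 there were 23 higher and 23 lower, and the median log2 fold change was −0.11. Zm00001eb070510, described as FLS2, the receptor of bacterial flagellin in Arabidopsis, lies on chromosome 2, 9877378 to 9881780, plus strand (coordinates as deposited; the build is not given in the sources used here). It held 1504, 1323 and 2093 normalised counts in the Zip1 libraries, against 336, 621 and 478 in the mock libraries. All Zip1 values were above 1000 and all mock values below (log2 fold change 1.78, SE 0.28, adjusted p = 0.0215). Zm00001eb293660, one of 2 risen genes described as HAR1, a receptor kinase that limits nodule number in Lotus, had 488, 499 and 563 with Zip1 and 191, 272 and 224 in mock leaves, which is a narrow but complete separation (log2 fold change 1.17, SE 0.20, adjusted p = 0.0255). Zm00001eb070730, described as the kinase At1g56140 of Arabidopsis, was the member that fell. Its counts were 2709, 2513 and 2965 in Zip1 libraries and 7497, 5068 and 5859.6 in mock libraries, the highest mock value being replicate 1 (log2 fold change −1.17, SE 0.22, adjusted p = 0.0391).

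S-domain and lectin receptor kinases had 3 risen members of 106 tested and none that fell. In this list 10 members were higher and 9 lower at an unadjusted p under 0.05. The risen ones were all S-domain kinases of the SD1 type, for which the list was widened after values had been seen. Zm00001eb323200, described as SD1-6, had 245, 234 and 166 normalised counts with Zip1, against 59.5, 52.1 and 60.1 in mock leaves. The Zip1 values were all above 150 and the mock values all below 70 (log2 fold change 1.91, SE 0.26, adjusted p = 0.0132). Zm00001eb323640, described as SD1-8, had 257, 391 and 201 with Zip1, against 75.1, 90.1 and 93.5 in mock leaves (log2 fold change 1.71, SE 0.29, adjusted p = 0.0255). None of the 69 immune receptors of the NB-ARC class, which act inside the cell, was called by edgeR, with 5 higher and 5 lower at an unadjusted p under 0.05, and DESeq2 called 2 higher and 1 lower. Wall-associated kinases, 42 tested, also had none called by edgeR, with 7 higher and 1 lower at that level, and DESeq2 called 1 higher.

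Calcium sensors and calcium-dependent kinases rose in 5 of 179 tested members, and none fell. At an unadjusted p under 0.05, 35 were higher and 6 lower, a share of 19.6% higher, and DESeq2 called 11 higher and 2 lower. Zm00001eb015800, described as the calmodulin-like protein CML27, had 1948, 2489.8 and 2244 normalised counts with Zip1 and 888, 927 and 1213 in mock leaves (log2 fold change 1.14, SE 0.19, adjusted p = 0.0255). Zm00001eb015210, described as the CBL-interacting kinase CIPK31, had 3699, 4210.3 and 3529 with Zip1 and 1954, 2167 and 1719 in mock leaves, all Zip1 values being above 3500 and all mock values below 2200 (log2 fold change 0.97, SE 0.17, adjusted p = 0.0311). The other 3, chosen after their values were seen, were a calcium-dependent kinase, Zm00001eb107190, a second calmodulin-like protein, Zm00001eb078790, and Zm00001eb196390, described as the calcium-binding protein CBP, with log2 fold changes of 1.97, 2.26 and 1.34. Among the 104 type 2C protein phosphatases, which switch off kinase signals, Zm00001eb400570 rose, with 219, 218 and 139 normalised counts in Zip1 libraries, against 34.4, 38.0 and 61.0 in mock libraries (log2 fold change 2.11, SE 0.34, adjusted p = 0.0223). In the receptor-like cytoplasmic kinases, which pass on receptor signals, 1 of 83 rose: Zm00001eb149520, described as PBL15, had 884 ± 91.6 normalised counts with Zip1 and 469.5 ± 60.8 in mock leaves (SD, n = 3 each; adjusted p = 0.0463). The single calls in these phosphatases and cytoplasmic kinases stand beside 0.823% of all tested genes. At an unadjusted p under 0.05, 10.6% and 9.64% of them were higher, against 7.54% of all tested genes. MAP kinase cascade genes (56 tested) and respiratory burst oxidases (9 tested) had none called by edgeR, with 7 and 1 higher and 1 and 1 lower at an unadjusted p under 0.05. DESeq2 called 5 of the MAP kinase cascade genes higher and none of the oxidases.

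WRKY factors, which bind the W-box of defence genes, rose in 3 of 91 tested members and fell in none. The libraries of 26 members did not overlap with Zip1 higher, which is 28.6% of them against 10.3% of all tested genes, and those of 2 members with Zip1 lower. The median log2 fold change of the list was 0.37, and DESeq2 called 10 higher and 1 lower. Zm00001eb195420, described as WRKY transcription factor 55, had 119, 120.4 and 105 normalised counts in Zip1 libraries, against 32.4, 30.4 and 38.4 in mock libraries. Replicates lay close together in both groups, and the lowest Zip1 value was far above the highest mock value (log2 fold change 1.76, SE 0.29, adjusted p = 0.0247). Zm00001eb015320, named by its WRKY domain alone, had 395, 524 and 606 with Zip1 and 166, 179 and 175 in mock leaves (log2 fold change 1.55, SE 0.27, adjusted p = 0.0309). Zm00001eb337270, described as WRKY50 and chosen after its values were seen, had 167, 134 and 249 with Zip1 and 45.9, 29.3 and 32.5 in mock leaves, with replicate 3 the highest Zip1 library (log2 fold change 2.35, SE 0.44, adjusted p = 0.0366). Not every member was higher: Zm00001eb098330, described as WRKY19, averaged 79.4 ± 38.0 normalised counts with Zip1 and 278 ± 143 in mock leaves (SD, n = 3 each) and did not pass (adjusted p = 0.135).

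NAC factors rose in 3 of 69 tested members, and none fell, while DESeq2 called 5 higher and 1 lower. Zm00001eb369060, described as NAC68, had 1166, 1128 and 1064 normalised counts with Zip1 and 436, 341 and 437 in mock leaves (log2 fold change 1.47, SE 0.24, adjusted p = 0.0223). Zm00001eb149810, a second gene described as NAC68 on chromosome 3, 191284856 to 191287422, plus strand, had 108, 266 and 144 with Zip1 and 25.0, 26.1 and 34.5 in mock leaves, with replicate 2 the highest Zip1 library (log2 fold change 2.59, SE 0.46, adjusted p = 0.0309). The third, Zm00001eb405590, described as NAC56 and likewise chosen later, averaged 1006 ± 289.6 with Zip1 and 422 ± 24.7 in mock leaves (SD, n = 3 each; adjusted p = 0.0463). MYB factors rose in 2 of 136 members, with 5 called higher and 2 lower by DESeq2. At an unadjusted p under 0.05, 8.09% of them were higher, close to the 7.54% of all tested genes. Zm00001eb288890, described as DIVARICATA, a factor of flower shape in snapdragon, had 669, 345 and 496 with Zip1 and 57.4, 40.2 and 47.3 in mock leaves. No mock library reached 60, and no Zip1 library was below 300 (log2 fold change 3.38, SE 0.45, adjusted p = 0.0124). Zm00001eb028610, described as JAMYB, a rice factor named for its response to jasmonate, had 203, 210.0 and 123 with Zip1 and 38.6, 35.8 and 41.4 in mock leaves (log2 fold change 2.21, SE 0.36, adjusted p = 0.0223). In ERF and AP2 factors 1 of 112 rose, Zm00001eb202570, described as ERF110, with 451, 439 and 344 normalised counts in Zip1 libraries, against 105, 45.6 and 129 in mock libraries (log2 fold change 2.14, SE 0.43, adjusted p = 0.0496). The list had 22 members higher and 5 lower at an unadjusted p under 0.05, or 19.6% higher against 7.54% of all tested genes. DESeq2 called 10 higher and 1 lower, and the 1 edgeR call stands beside 0.823% of all tested genes.

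In the other factor families, 1 of 91 bHLH factors and 1 of 86 bZIP factors rose, against 0.823% of all tested genes. At an unadjusted p under 0.05, 9.89% and 4.65% of them were higher, against 7.54% of all tested genes. The bZIP factor, Zm00001eb366900, described as a homolog of ABI5, which acts in abscisic acid responses, had 50.1, 134 and 105 normalised counts with Zip1 and 5.22, 9.77 and 13.8 in mock leaves (log2 fold change 3.31, SE 0.51, adjusted p = 0.0203). The bHLH factor, Zm00001eb420440, described as BHLH6, had 14.5, 36.4 and 22.8 with Zip1, while every mock library held at most 3 reads, so that it was at least 7.55-fold higher (adjusted p = 0.0196). That bound is the mean of the Zip1 libraries over 3 reads in 1 mock library, and it covers counting error only. A further regulator with all mock libraries at or under 3 reads was Zm00001eb386040, described as MBF1c, a coactivator known from heat responses, with 23.4, 24.3 and 46.6 normalised counts with Zip1, at least 9.65-fold higher (adjusted p = 0.0422). The lists of heat stress factors (23 tested), C2H2 zinc finger factors (76) and GRAS factors (49) had none called by edgeR. At an unadjusted p under 0.05, 3, 6 and 5 were higher and 1, 5 and 2 lower. DESeq2 called 2, 2 and 1 of them higher and 0, 1 and 1 lower. Outside the C2H2 list, Zm00001eb313050 and Zm00001eb313140 carry a Pfam domain named zinc finger of C2H2 type, and both rose. Their log2 fold changes were 2.00 and 3.63 (edgeR adjusted p = 0.0124 and 0.0246). They were chosen after their values were seen.

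Genes of SA perception and turnover rose in 2 of 32 tested members, and none fell. Zm00001eb148670, described as NPR4, an SA receptor that represses transcription in Arabidopsis, lies on chromosome 3, 186877432 to 186881409, plus strand. It had 766, 1082 and 1128 normalised counts in Zip1 libraries, against 333, 315 and 412 in mock libraries, and the mock values lay within 100 counts of each other (log2 fold change 1.49, SE 0.19, adjusted p = 0.0124). In SA leaves it held 1884, 1712 and 2026 normalised counts, and the direct test of Zip1 against SA gave log2 fold change −0.92, adjusted p = 0.0185. The other risen gene, Zm00001eb073030, described as DMR6-LIKE OXYGENASE 1, of an enzyme family that hydroxylates SA, held 939.6, 506 and 1018 with Zip1 and 49.0, 34.7 and 76.8 in mock leaves, and was also lower with Zip1 than with SA (log2 fold change −2.60, adjusted p = 0.00134). Zm00001eb065420, described as NPR3, averaged 922 ± 205 with Zip1 and 616 ± 66.6 in mock leaves (SD, n = 3 each) and did not pass (adjusted p = 0.209). None of the 14 genes of the EDS1, PAD4 and SAG101 group was called by edgeR, with 0 higher and 2 lower at an unadjusted p under 0.05, and DESeq2 called 1 lower.

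Jasmonate repressors of the JAZ family had the highest share of members with an unadjusted p under 0.05 among lists of at least 15 tested genes. They numbered 19 tested genes after the list was widened and then trimmed of a receptor kinase, both after values had been seen. Of these, 11 were higher (57.9%) and 0 lower at that level, the median log2 fold change was 0.87, and 1 rose at the adjusted level, against 6 called higher by DESeq2. That gene, Zm00001eb100130, described as TIFY 10c, had 434, 464 and 307 normalised counts with Zip1, against 101, 149.8 and 75.8 in mock leaves. The lowest Zip1 value was above 300 and the highest mock value was about 150 (log2 fold change 1.88, SE 0.33, adjusted p = 0.0305). Zm00001eb327450, described as TIFY 10b, had 1355, 1664 and 1742 with Zip1 and 693, 907 and 1012 in mock leaves and missed the threshold (adjusted p = 0.0567). Zm00001eb006000, described as TIFY 11b, had 187, 305 and 118 with Zip1 and 84.5, 82.5 and 43.3 in mock leaves (adjusted p = 0.0952). In the list of jasmonate synthesis 1 of 33 tested genes rose, Zm00001eb373030, described as 12-oxophytodienoate reductase 1, with 508, 654 and 373 with Zip1 and 85.6, 162 and 183 in mock leaves (log2 fold change 1.83, SE 0.33, adjusted p = 0.0342). That list was split at an unadjusted p under 0.05, with 9 higher and 7 lower, and DESeq2 called 4 higher and 1 lower.

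Of 109 tested genes of the auxin list 2 fell and none was called higher by edgeR, while DESeq2 called 7 lower and 2 higher. Outside the list, Zm00001eb304530, described as an IAA-amino acid hydrolase, and Zm00001eb213190, described as indole-3-acetaldehyde oxidase, rose. Their log2 fold changes were 1.21 and 1.59 (edgeR adjusted p = 0.0285 and 0.0305), and they were chosen after their values were seen. In the list 21 were lower and 6 higher at an unadjusted p under 0.05, and the median log2 fold change was −0.325. Zm00001eb284310, described as IAA17, a repressor of auxin responses, had 3433, 5872 and 4017 normalised counts in Zip1 libraries, against 8732, 10564 and 11435 in mock libraries. The highest Zip1 value, in replicate 2, was well below the lowest mock value (log2 fold change −1.21, SE 0.23, adjusted p = 0.0448). Zm00001eb152940, described as auxin response factor 3, had 438, 352 and 405 with Zip1 and 727, 790.1 and 649.9 in mock leaves (log2 fold change −0.86, SE 0.16, adjusted p = 0.0419). Members that did not pass went in both directions, with Zm00001eb129570 (IAA4) averaging 215 ± 32.5 with Zip1 and 512 ± 123 in mock leaves (SD, n = 3 each; adjusted p = 0.0795). Zm00001eb239550 (IAA7) averaged 239.6 ± 159.9 with Zip1 and 44.2 ± 10.1 in mock leaves (SD, n = 3 each; adjusted p = 0.0623). Ethylene synthesis (12 tested), gibberellin oxidases (16) and cytokinin genes (30) had none called by edgeR, with 2, 1 and 1 higher and 0, 1 and 5 lower at an unadjusted p under 0.05. DESeq2 called 1 cytokinin gene higher and none of the others. Abscisic acid synthesis and receptors (22 tested) had none called by edgeR, with 0 higher and 4 lower at that level, and DESeq2 called 1 lower.

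**Figure D4:**
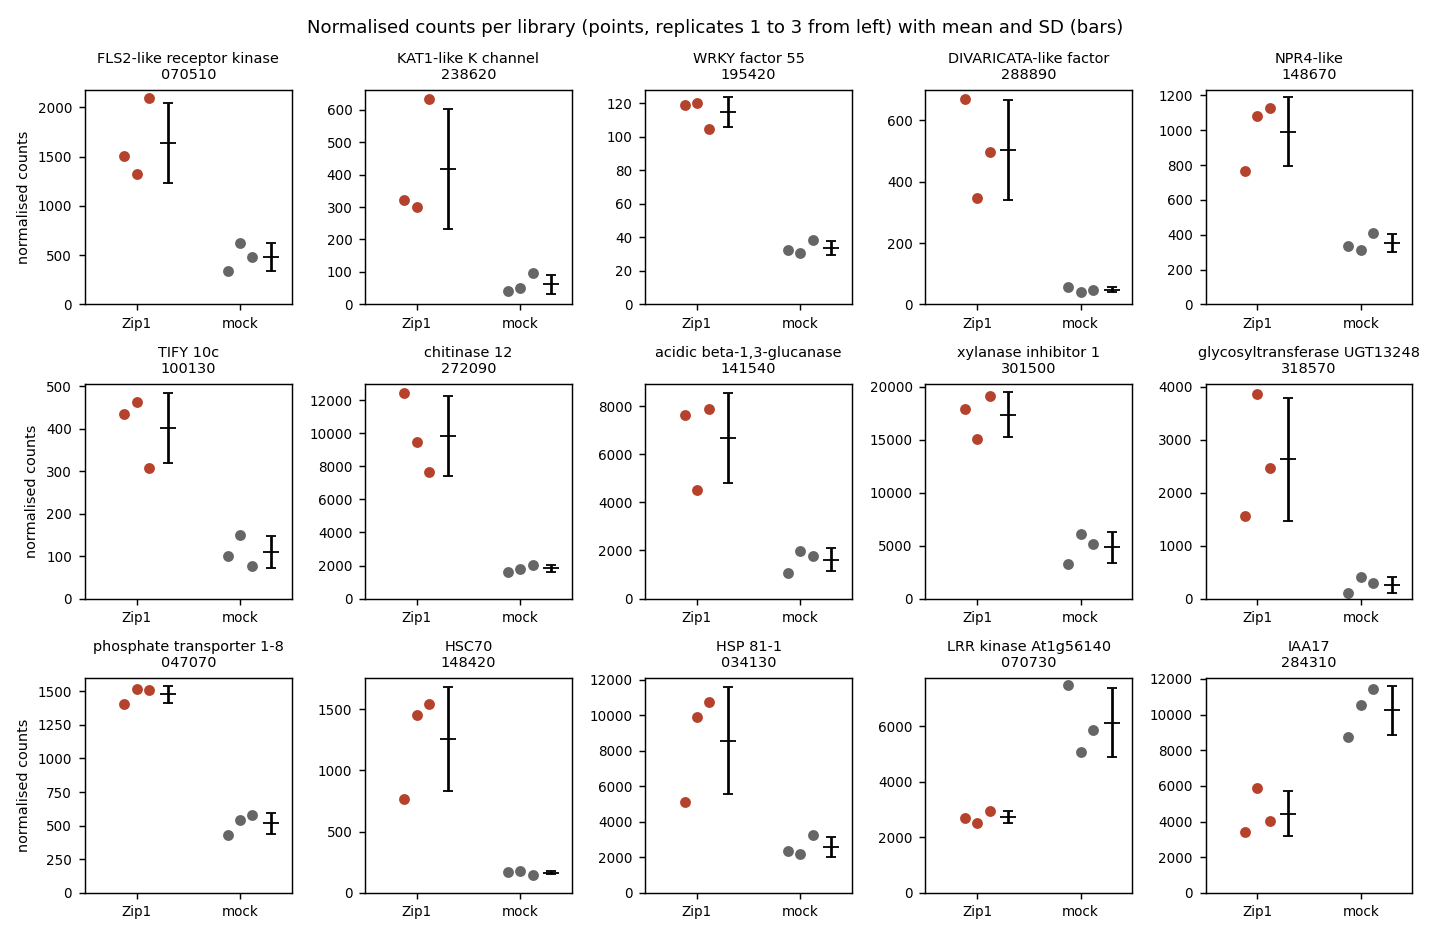
Each panel gives 1 gene by the last 6 digits of its identifier, with the normalised counts of the 3 Zip1 libraries (red, left) and the 3 mock libraries (grey, right), replicates 1 to 3 from left to right, and the mean and SD beside them, on axes from 0. In the first 13 panels every Zip1 library is above every mock library, and in the last 2, the kinase At1g56140 and IAA17, every Zip1 library is below.

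Secreted hydrolases of the defence response rose in several families. Chitinases, which cut fungal cell walls, rose in 3 of 17 tested members, and none was lower at an unadjusted p under 0.05. Zm00001eb272090, described as chitinase 12, had 12449.7, 9451 and 7637 normalised counts in Zip1 libraries, against 1631, 1818 and 2039 in mock libraries. Zip1 replicate 1 was the highest and replicate 3 the lowest of a group that stayed far above mock (log2 fold change 2.43, SE 0.34, adjusted p = 0.0154). Zm00001eb246640, chitinase 6, had 1581, 1606 and 2572 with Zip1 and 518, 744 and 942 in mock leaves (log2 fold change 1.39, SE 0.25, adjusted p = 0.0309). The third, chosen after its values were seen, was Zm00001eb174340, described as an acidic endochitinase (log2 fold change 1.60, adjusted p = 0.0391). It carries a protein kinase domain beside a glycosyl hydrolase domain of family 18, so its name alone does not make it a secreted chitinase. Beta-1,3-glucanases of family 17 rose in 2 of 60, with 6 called higher and 1 lower by DESeq2. Zm00001eb141540, the acidic isoform, had 7612, 4522 and 7896 with Zip1 and 1077, 1995 and 1754 in mock leaves (log2 fold change 2.05, SE 0.31, adjusted p = 0.0196). It was higher with Zip1 than with SA, where it had 948, 561 and 566 (log2 fold change 3.27, adjusted p = 0.00052). Zm00001eb366860, described as glucan endo-1,3-beta-glucosidase 14, had 745, 796 and 438 with Zip1 and 122, 174 and 224 in mock leaves (log2 fold change 1.93, SE 0.30, adjusted p = 0.0203).

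Thaumatin-like proteins and CAP-domain proteins, which include the PR-1 class, rose in 1 of 26 tested members. Zm00001eb032600, a thaumatin-like protein, had 737, 749 and 912 normalised counts with Zip1 and 175, 302 and 389.9 in mock leaves (log2 fold change 1.47, SE 0.28, adjusted p = 0.0419). Of 4 tested PR-10 genes none was called by edgeR, 2 were higher at an unadjusted p under 0.05, and DESeq2 called 1 higher. Zm00001eb014000, one of these, had 1085, 1703 and 1553 with Zip1 and 669.9, 725 and 999 in mock leaves (adjusted p = 0.0969). Outside the lists, the xylanase inhibitors, named because 1 is among the 10 called genes with the highest level per kilobase, had 2 risen genes of 7 tested, and all 7 had a positive log2 fold change. Zm00001eb301500, described as xylanase inhibitor protein 1 of wheat, which blocks xylanases of fungi, had 17874, 15031 and 19161 normalised counts with Zip1 and 3237, 6127 and 5192 in mock leaves (log2 fold change 1.84, SE 0.34, adjusted p = 0.0366). It overlaps Zm00001eb301510, the other risen inhibitor, on the opposite strand. The source does not say if counting used the strand, so reads of this pair cannot be told apart. None of 62 secretory peroxidases or 21 protease inhibitors was called by edgeR, with 9 and 4 higher and 5 and 0 lower at an unadjusted p under 0.05, and DESeq2 called 3 of each higher.

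In the phenylpropanoid route, which leads to lignin and phenolic defence compounds, edgeR called members after phenylalanine ammonia-lyase, and none of the 10 tested ammonia-lyases. It also called members of the list of shikimate and tryptophan enzymes. That list holds tryptophan enzymes as well, so it is not a step of this route. At an unadjusted p under 0.05 the shares higher were 28.6% in the shikimate and tryptophan list, 20% in the ammonia-lyases and 18.9% in the enzymes after them. The shares lower were 4.08%, 10% and 8.11%. The lack of a call among so few genes does not set the ammonia-lyases apart. Of 49 shikimate and tryptophan enzymes 2 rose and none fell, with 14 higher (28.6%) and 2 lower at an unadjusted p under 0.05, and DESeq2 called 5 higher and 1 lower. Zm00001eb131900, the dehydratase and shikimate dehydrogenase of the shikimate pathway, had 1267, 1314 and 1271 normalised counts with Zip1 and 573, 488 and 649.9 in mock leaves, each group lying in a narrow range (log2 fold change 1.17, SE 0.15, adjusted p = 0.0124). Zm00001eb378020, the carboxyvinyltransferase of the same pathway, had 1424, 1752 and 1408 with Zip1 and 709.6, 899 and 951 in mock leaves (log2 fold change 0.84, SE 0.17, adjusted p = 0.0467). Of 10 phenylalanine ammonia-lyases none was called by edgeR, 2 were higher and 1 lower at an unadjusted p under 0.05, and DESeq2 called none. The one with the highest level per kilobase, Zm00001eb247630, averaged 3877 ± 484 with Zip1 and 2624 ± 178 in mock leaves (SD, n = 3 each; adjusted p = 0.191). After that step 3 of 74 tested enzymes rose, with 5 called higher and 3 lower by DESeq2. Zm00001eb368900, trans-cinnamate 4-monooxygenase, had 385, 404 and 307 with Zip1 and 109.6, 154 and 153 in mock leaves (log2 fold change 1.40, SE 0.23, adjusted p = 0.0223). Zm00001eb070170, described as cinnamyl alcohol dehydrogenase 1, had 65.7, 76.5 and 51.4 with Zip1 and 9.39, 13.0 and 8.86 in mock leaves (log2 fold change 2.62, SE 0.28, adjusted p = 0.00753), but 2059, 2396 and 3130.2 in SA leaves (log2 fold change −5.29, adjusted p = 5.01e-06 for Zip1 against SA). The third, chosen after its values were seen, was a hydroxycinnamoyltransferase, Zm00001eb180060 (log2 fold change 2.26, adjusted p = 0.0304).

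Cytochrome P450 enzymes had 4 risen and 2 fallen members of 159 tested, and DESeq2 called 23 higher and 8 lower. Besides trans-cinnamate 4-monooxygenase, Zm00001eb291460, described as CYP98A1, had 616, 554 and 601 normalised counts with Zip1 and 182, 203 and 273 in mock leaves (log2 fold change 1.43, SE 0.24, adjusted p = 0.0247). The 2 that fell are neighbours on chromosome 4 with entries of the benzoxazinoid route, which makes the hydroxamic acid defences of maize. Zm00001eb165550, an indolin-2-one monooxygenase, had 519.9, 577 and 501 with Zip1 and 1513, 1506 and 1433 in mock leaves (log2 fold change −1.48, SE 0.25, adjusted p = 0.0262), and Zm00001eb165560, a 3-hydroxyindolin-2-one monooxygenase, had 616, 693 and 279 with Zip1 and 1758, 1409 and 1439 in mock leaves (log2 fold change −1.54, SE 0.29, adjusted p = 0.0372). The remaining 25 of 27 tested benzoxazinoid entries did not pass, and DESeq2 called 3 of the 27 higher and 3 lower. Of these, Zm00001eb261620, chosen after its values were seen and described as an indole-2-monooxygenase (chromosome 6, 13238098 to 13240114, plus strand), had 5395, 666 and 2202 with Zip1, against 499, 173 and 59.1 in mock leaves (adjusted p = 0.135). Its Zip1 libraries differed widely among themselves, replicate 2 being the lowest.

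Conjugating enzymes had 6 risen UDP-glycosyltransferases of 135 tested and 2 risen glutathione S-transferases of 67, and none of either fell. The glycosyltransferases had 26 members higher (19.3%) and 4 lower at an unadjusted p under 0.05, and the glutathione S-transferases 18 higher (26.9%) and 1 lower. DESeq2 called 14 and 13 higher and 2 and 0 lower. Zm00001eb122610, described as UGT73C3, had 80.2, 143 and 54.2 normalised counts with Zip1 and 3.13, 16.3 and 8.86 in mock leaves (log2 fold change 3.29, SE 0.53, adjusted p = 0.0223). Zm00001eb426900, a second gene described as UGT73C3, had 18.9, 28.9 and 28.5 with Zip1 and no read in any mock library, at least 7.82-fold higher against 3 reads (adjusted p = 0.0196). Zm00001eb318570, described as UGT13248, the barley enzyme that conjugates the fungal toxin deoxynivalenol, was chosen after its values were seen. It had 1551, 3863 and 2466 with Zip1 and 102, 402 and 286 in mock leaves (log2 fold change 3.32, SE 0.54, adjusted p = 0.0247), and 50320.3, 45986 and 97664 in SA leaves (log2 fold change −4.62, adjusted p = 0.00188 for Zip1 against SA). Zm00001eb141080, a glutathione S-transferase, had 3549, 5784 and 2889 with Zip1 and 274, 651 and 1015 in mock leaves (log2 fold change 2.65, SE 0.43, adjusted p = 0.0246). Zm00001eb419190, described as GSTU6, had 348, 500.4 and 189 with Zip1 and 45.9, 74.9 and 77.8 in mock leaves, with Zip1 replicate 3 the lowest of its group (log2 fold change 2.38, SE 0.44, adjusted p = 0.0373). Both glutathione S-transferases were lower with Zip1 than with SA, with log2 fold changes of −3.65 (adjusted p = 0.00175) and −1.83 (adjusted p = 0.0346).

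Acyltransferases of the BAHD family, which attach acyl groups to phenolics and anthocyanins, rose in 3 of 50 tested members. None of the 50 was lower at an unadjusted p under 0.05 and 16 were higher (32%), with a median log2 fold change of 0.61, and DESeq2 called 7 higher. Zm00001eb270810, named by its transferase domain, had 359.6, 320.2 and 226 normalised counts with Zip1 and 45.9, 58.6 and 101 in mock leaves (log2 fold change 2.13, SE 0.34, adjusted p = 0.0215). Zm00001eb225820, described as a malonyltransferase of anthocyanidin glucosides, had 190.4, 381 and 218 with Zip1 and 96.0, 81.4 and 97.5 in mock leaves (log2 fold change 1.52, SE 0.26, adjusted p = 0.0264). The third was the hydroxycinnamoyltransferase Zm00001eb180060 given above with the phenylpropanoid enzymes. Terpene synthases (21 tested) had none called by edgeR, with 6 higher and 0 lower at an unadjusted p under 0.05, and DESeq2 called 2 higher.

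Transporters of several substrates had risen members, and most of these lists also had members that were lower at an unadjusted p under 0.05. In the ABC family 2 of 102 rose, with 8 called higher and 0 lower by DESeq2, and 14 higher and 4 lower at that unadjusted level. Zm00001eb161780, described as ABCG36, an exporter of defence compounds in Arabidopsis, had 1276, 1824 and 999 normalised counts with Zip1 and 247, 179 and 370.2 in mock leaves (log2 fold change 2.36, SE 0.37, adjusted p = 0.021), and 20379.5, 11088 and 9296 in SA leaves (log2 fold change −3.31, adjusted p = 0.00114 for Zip1 against SA). Zm00001eb088090, described as ABCC4, had 884, 570.4 and 713 with Zip1 and 228, 364 and 143 in mock leaves (log2 fold change 1.56, SE 0.31, adjusted p = 0.0459). In the MATE family of efflux carriers 2 of 49 rose, with 6 higher and 4 lower at that level, and DESeq2 called 3 higher and 1 lower. Zm00001eb086100, described as DETOXIFICATION 16, had 1584, 1905 and 1764 with Zip1 and 770.1, 805 and 725 in mock leaves (log2 fold change 1.19, SE 0.15, adjusted p = 0.0124), and Zm00001eb405390, described as DETOXIFICATION 21, had 339.5, 477 and 385 with Zip1 and 171, 134 and 175 in mock leaves (log2 fold change 1.32, SE 0.24, adjusted p = 0.0309). For all 4 transporters the libraries of the groups were fully apart, as they were for each of the 204 called genes.

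NRT1/PTR carriers, which move nitrate, peptides and hormones, rose in 4 of 51 tested members. The list had 6 higher and 4 lower at an unadjusted p under 0.05, and DESeq2 called 5 higher and 0 lower. Zm00001eb025400, described as NPF8.4, had 1061, 854 and 816 normalised counts with Zip1 and 263, 305 and 320.0 in mock leaves (log2 fold change 1.62, SE 0.29, adjusted p = 0.0338). Zm00001eb189000, described as NPF7.3, had 239, 199 and 66.6 with Zip1 and 10.4, 14.1 and 2.95 in mock leaves, with Zip1 replicate 3 the lowest of its group (log2 fold change 4.19, SE 0.65, adjusted p = 0.0203). The other 2, chosen after their values were seen, were Zm00001eb335710 (NPF8.1) and Zm00001eb062900 (NPF5.6), with log2 fold changes of 0.80 and 1.92. Of 53 phosphate genes 2 rose, with 7 higher and 3 lower at an unadjusted p under 0.05, and DESeq2 called 3 higher and 1 lower. Zm00001eb047070, described as the phosphate transporter PHT1-8, had 1403, 1519.8 and 1509 with Zip1 and 429.9, 540.5 and 577 in mock leaves (log2 fold change 1.52, SE 0.20, adjusted p = 0.0124), and 207, 323 and 328 in SA leaves (log2 fold change 2.37, adjusted p = 0.000254 for Zip1 against SA). Zm00001eb064450, described as purple acid phosphatase 15, had 1624, 1154 and 2323 with Zip1 and 708, 729 and 773 in mock leaves (log2 fold change 1.21, SE 0.24, adjusted p = 0.0496).

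Potassium carriers went in both directions, with 2 risen and 1 fallen of 48 tested, and DESeq2 called 4 higher and 4 lower. Zm00001eb238620, described as KAT1, the potassium inlet of guard cells in Arabidopsis, had 323, 299 and 632 normalised counts with Zip1 and 39.6, 48.8 and 95.5 in mock leaves, replicate 3 being the highest in both groups (log2 fold change 2.76, SE 0.40, adjusted p = 0.019). Zm00001eb048960, described as potassium transporter 21, had 138, 65.3 and 208 with Zip1 and 8.35, 8.68 and 10.8 in mock leaves (log2 fold change 3.87, SE 0.70, adjusted p = 0.0338). Zm00001eb118350, described as potassium transporter 22, fell, with 339.5, 484 and 347 with Zip1 and 762, 803 and 1210.1 in mock leaves (log2 fold change −1.25, SE 0.22, adjusted p = 0.0304). Sugar carriers rose in 2 of 61 members, with 6 called higher and 0 lower by DESeq2. This list was split at an unadjusted p under 0.05, with 11 higher and 6 lower, and its median log2 fold change was −0.043. Zm00001eb296220, described as ERD6-like 6, had 945, 1447 and 1257 with Zip1 and 394, 368 and 488 in mock leaves (log2 fold change 1.54, SE 0.21, adjusted p = 0.0124). Zm00001eb342040, described as SWEET2a, had 1509.6, 1022 and 1109 with Zip1 and 624, 582 and 452 in mock leaves (log2 fold change 1.14, SE 0.22, adjusted p = 0.0459). None of 29 aquaporins, 77 amino acid carriers or 48 metal carriers and nicotianamine genes was called by edgeR, with 3, 9 and 4 higher and 1, 7 and 6 lower at an unadjusted p under 0.05. DESeq2 called 2, 6 and 2 of them higher and 0, 4 and 2 lower.

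Sulfate assimilation gave 1 fall of 23 tested genes. Zm00001eb322440, described as 5'-adenylylsulfate reductase 1, the enzyme that commits sulfate to reduction, had 692, 424 and 700.3 normalised counts with Zip1 and 1538, 1052 and 1508 in mock leaves (log2 fold change −1.17, SE 0.23, adjusted p = 0.0451). In SA leaves it had 6639, 5275 and 6848, and Zip1 was lower in the direct test (log2 fold change −3.37, adjusted p = 8.15e-05). Nitrate reduction and glutamine synthetase genes (30 tested) had none called by edgeR, with 7 higher (23.3%) and 1 lower at an unadjusted p under 0.05, and DESeq2 called 2 higher.

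Chaperones of the HSP70, HSP90 and HSP100 classes had the most risen genes of any list, 8 of 49, with none that fell. Their summed share of all counts was 0.299%, 0.423% and 0.452% in the Zip1 libraries, against 0.265%, 0.248% and 0.308% in the mock libraries, so that the lowest Zip1 library lay within the mock range. Zm00001eb148420, a heat shock cognate 70 kDa protein, had 768, 1449 and 1543 normalised counts with Zip1 and 168, 178 and 149 in mock leaves (log2 fold change 2.93, SE 0.41, adjusted p = 0.019). Zm00001eb293780, described as ClpB1, an HSP100 that untangles protein aggregates, had 347, 835 and 304 with Zip1 and 60.5, 48.8 and 72.9 in mock leaves (log2 fold change 3.02, SE 0.43, adjusted p = 0.0196). It overlaps Zm00001eb293790, also described as ClpB1, on the opposite strand, and reads of this pair cannot be told apart. Zm00001eb012470, the chaperone gene with the highest level per kilobase among the called ones, had 12155, 13060.3 and 12063 with Zip1 and 5923, 2652 and 4251 in mock leaves (log2 fold change 1.54, SE 0.26, adjusted p = 0.027).

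The 2 HSP90 genes that rose were Zm00001eb034130, described as HSP81-1, and Zm00001eb418610, described as HSP82; they are named after their values were seen. Zm00001eb034130 had 5104, 9874 and 10739 normalised counts with Zip1 and 2354, 2164 and 3236 in mock leaves (log2 fold change 1.73, SE 0.33, adjusted p = 0.0401). Zm00001eb418610 had 85.7, 248 and 330.2 with Zip1 and 17.7, 49.9 and 12.8 in mock leaves (log2 fold change 3.06, SE 0.56, adjusted p = 0.0408). In both, Zip1 replicate 1 was the lowest Zip1 library. Small heat shock proteins had 1 risen member of 38 and 12 higher (31.6%) and 0 lower at an unadjusted p under 0.05, and DESeq2 called 7 higher. Zm00001eb011930, of class I, had 77.9, 252 and 142 with Zip1 and 21.9, 9.77 and 11.8 in mock leaves (log2 fold change 3.43, SE 0.54, adjusted p = 0.0223), and 2283, 3154 and 5409 in SA leaves (log2 fold change −4.52, adjusted p = 0.000992 for Zip1 against SA). The list's summed share of counts was 0.0187%, 0.0307% and 0.0329% with Zip1, against 0.0173%, 0.0211% and 0.0197% in mock leaves. Of the 8 risen chaperones of the larger classes 4 were lower with Zip1 than with SA at an adjusted p under 0.05, and the other 4 were not called between them.

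By list, U-box ligases rose in 2 of 77 tested members, F-box proteins in 2 of 208, RING ligases in 1 of 209 and aspartic proteases in 1 of 62, against 0.823% of all tested genes, and edgeR called none lower. Zm00001eb052950, described as an E3 ubiquitin ligase with a RING-type zinc finger, is in no list and rose (log2 fold change 1.71, edgeR adjusted p = 0.0408). It was chosen after its values were seen. At an unadjusted p under 0.05 the U-box ligases had 7 higher and 9 lower (11.7%), the F-box proteins 17 and 14, the RING ligases 13 and 5, and the aspartic proteases 4 and 6. DESeq2 called 5 U-box ligases higher and 1 lower, 5 F-box proteins higher and 2 lower, 6 RING ligases higher and 1 lower, and 2 aspartic proteases higher and 0 lower. Over all 23077 tested genes it called 708 higher and 222 lower. Zm00001eb141210, described as U-box protein 43, had 899.5, 1183 and 852 normalised counts with Zip1 and 197, 260.5 and 388 in mock leaves (log2 fold change 1.79, SE 0.31, adjusted p = 0.0291). Zm00001eb290550, described as U-box protein 16, had 1221, 645 and 531 with Zip1 and 215, 180.2 and 239 in mock leaves, with replicate 1 the highest Zip1 library (log2 fold change 1.92, SE 0.38, adjusted p = 0.0483). Zm00001eb383460, described as the RING-H2 protein ATL70, had 780.4, 508 and 641 with Zip1 and 100.2, 80.3 and 183 in mock leaves (log2 fold change 2.40, SE 0.47, adjusted p = 0.0459). Zm00001eb194450, an F-box and kelch-repeat protein, had 1222, 1416 and 1171 with Zip1 and 274, 304 and 502 in mock leaves (log2 fold change 1.82, SE 0.25, adjusted p = 0.0152). Zm00001eb106850, described as the F-box protein At1g61340, had 107, 92.4 and 17.1 with Zip1 and at most 1 read in a mock library, at least 22.2-fold higher against 3 reads (adjusted p = 0.017). Zm00001eb240970, described as aspartic proteinase 36, had 543, 658 and 578 with Zip1 and 201, 234 and 288 in mock leaves (log2 fold change 1.30, SE 0.19, adjusted p = 0.0195).

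Papain-like cysteine proteases, the class that releases Zip1, had none called of 18 tested by edgeR, with 1 higher and 2 lower at an unadjusted p under 0.05, and DESeq2 called 1 lower. Metacaspases (13 tested) and subtilisin-like proteases (38 tested) likewise had none called by edgeR, with 1 and 3 higher and 1 and 4 lower at that level. DESeq2 called 1 and 1 of them higher and 0 and 2 lower. Of 87 subunits of the 26S proteasome none was called by edgeR, 6 were higher and 1 lower at an unadjusted p under 0.05, and DESeq2 called none. In 25 of them (28.7%, against 10.3% of all tested genes) every Zip1 library was above every mock library, and the list's median log2 fold change was 0.19. The steps were small: Zm00001eb312980, the subunit with the lowest p, averaged 524 ± 47.9 normalised counts with Zip1 and 378 ± 40.7 in mock leaves (SD, n = 3 each; adjusted p = 0.271).

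Photosynthesis and the leaf's cell types served as a check of the tissue. Of 57 light-harvesting and photosystem genes none was called by edgeR, 4 were lower and 0 higher at an unadjusted p under 0.05, DESeq2 called 2 lower, 3 had a positive log2 fold change, and the median was −0.37. Their summed share of counts was 12.7%, 11.9% and 8.82% in the Zip1 libraries, against 12.7%, 16.5% and 10.5% in the mock libraries, and the ranges overlapped. Mesophyll markers, enzymes of the C4 carbon pump in that cell layer, took 6.48%, 5.37% and 5.62% of counts with Zip1 and 6.56%, 5.94% and 6.47% in mock leaves. Bundle sheath markers took 2.29%, 1.71% and 1.76% with Zip1 and 2.07%, 2.42% and 1.5% in mock leaves. Dividing-cell markers took 0.202% to 0.246% with Zip1 and 0.208% to 0.268% in mock leaves, with 51 of 156 at 0 in all libraries. Epidermal wax and cuticle enzymes took 0.0652% to 0.106% with Zip1 and 0.0701% to 0.11% in mock leaves. The ranges of the Zip1 and mock libraries overlapped for all 4 marker lists, and the part of cell composition in the gene results was not tested.

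Of 21 tested genes in the list of C4 cycle enzymes 2 rose. The list matches enzyme names, and which copies serve the C4 cycle was not tested. Zm00001eb238670, described as phosphoenolpyruvate carboxylase 1, had 6849.9, 8795 and 6566 normalised counts with Zip1 and 1601, 2205 and 2117 in mock leaves (log2 fold change 1.91, SE 0.23, adjusted p = 0.0101), and Zm00001eb349990, a copy of NADP-dependent malic enzyme, had 36.7, 50.4 and 45.7 with Zip1 and 7.3, 3.26 and 5.91 in mock leaves (log2 fold change 2.98, SE 0.59, adjusted p = 0.0463). Per kilobase of gene length they stood at 2072 and 18.9 normalised counts with Zip1, and at 552 and 2.35 in mock leaves. A pyruvate phosphate dikinase of the same cycle, Zm00001eb287770, stood far above both at 212932 per kilobase with Zip1 and 273392 in mock leaves, and did not pass (adjusted p = 0.581). In starch metabolism Zm00001eb003440, described as beta-amylase 2, rose, with 1201, 1233 and 1058 with Zip1 and 416, 473 and 579 in mock leaves (log2 fold change 1.25, SE 0.21, adjusted p = 0.025). Of 305 cytosolic ribosomal protein genes none was called by edgeR, with 7 higher and 2 lower at an unadjusted p under 0.05, and DESeq2 called 1 higher. Clock genes (30 tested) had none called by edgeR, with 1 higher and 6 lower at that level, and DESeq2 called 2 lower. Zm00001eb337600, described as GIGANTEA, a clock protein, averaged 32101 ± 3160.1 with Zip1 and 49542 ± 5798 in mock leaves (SD, n = 3 each; adjusted p = 0.233).

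Only 14 genes fell, and 12 of them have a description. Beside those given above they are Zm00001eb292290, Zm00001eb363370, Zm00001eb246000, Zm00001eb393500 and Zm00001eb233300. Zm00001eb292290, described as calreticulin-3, a folding aid of receptor kinases in the endoplasmic reticulum in Arabidopsis, had 4629, 4868 and 4954 normalised counts with Zip1 and 9884, 8339 and 9708 in mock leaves, with narrow groups (log2 fold change −0.95, SE 0.16, adjusted p = 0.0227). Zm00001eb363370, described as vesicle-associated protein 2-2, had 134, 176 and 250.2 with Zip1 and 567, 425 and 567 in mock leaves (log2 fold change −1.48, SE 0.25, adjusted p = 0.0247). Zm00001eb246000, a BTB/POZ protein of the NPH3 type, had 3758, 3511 and 2792 with Zip1 and 8888, 6598 and 8287 in mock leaves (log2 fold change −1.24, SE 0.23, adjusted p = 0.0349). Zm00001eb393500, described as the esterase D14L, whose Arabidopsis relative perceives karrikins from smoke, had 151, 213 and 205 with Zip1 and 407, 438 and 499 in mock leaves (log2 fold change −1.24, SE 0.24, adjusted p = 0.0421). Zm00001eb233300, described as succinate-semialdehyde dehydrogenase, had 387, 383 and 321 with Zip1 and 641, 596 and 630.2 in mock leaves (log2 fold change −0.78, SE 0.16, adjusted p = 0.0488).

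Levels between genes were compared per kilobase of gene length. The 10 called and described genes with the highest level in Zip1 leaves included Zm00001eb074350, described as a phospholipid hydroperoxide glutathione peroxidase, at 13578 normalised counts per kilobase with Zip1 and 4311 in mock leaves. Next came the xylanase inhibitor Zm00001eb301500 at 12894 with Zip1 and 3605 in mock leaves, and chitinase 12 at 8459 with Zip1 and 1572 in mock leaves. The aldo-keto reductase Zm00001eb148000 stood at 5328 per kilobase with Zip1 and 1740.2 in mock leaves, and the UDP-arabinopyranose mutase Zm00001eb049960 at 5238 with Zip1 and 1614 in mock leaves. The quinone reductase Zm00001eb369750 stood at 5186 with Zip1 and 2454 in mock leaves, the acidic glucanase at 5180.0 with Zip1 and 1248 in mock leaves, and the cognate chaperone Zm00001eb012470 at 5033 with Zip1 and 1732 in mock leaves. Zm00001eb075660, described as neomenthol dehydrogenase, stood at 4547 with Zip1 and 863 in mock leaves and had the second lowest p of all (log2 fold change 2.40, SE 0.25, adjusted p = 0.00753).

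By Pfam domain, 17 domains were carried by at least 3 called genes. The UDP-glycosyltransferase domain had 6 risen of 127 tested, the cytochrome P450 domain 4 risen and 2 fallen of 150, and the tyrosine kinase domain 6 risen of 279. The protein kinase domain had 5 risen of 678, or 9.59% higher at an unadjusted p under 0.05, which is close to the 7.54% of all tested genes. The Hsp70 domain had 4 risen of 33, the POT family 4 of 47, the sugar transporter domain 4 of 64 and the AAA ATPase domain 4 of 101. In smaller families, reversibly glycosylated polypeptides had 3 risen of 4 tested, glycosyl hydrolases of family 18 had 3 of 14, and the domain that accompanies plant AAA proteins had 3 of 17. In each of these 3 families 2 of the risen genes overlap on opposite strands, so that their reads cannot be told apart. Aldo/keto reductases had 3 risen of 27, the transferase family 3 of 50, NAM domains 3 of 61, WRKY domains 3 of 81, and the leucine-rich repeat domains 3 of 131 and 3 of 182.

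The genes of this paragraph are outside the lists and were chosen after their values were seen, so they stand for single genes and not for a pathway. Of 7 tested UDP-arabinopyranose mutases, which supply arabinose for wall polymers, 3 rose. Zm00001eb049960 had 6848, 10842 and 8818 normalised counts with Zip1 and 2304, 2867 and 2997 in mock leaves (log2 fold change 1.70, SE 0.22, adjusted p = 0.0124). It overlaps the second, Zm00001eb049970, on the opposite strand, so that the reads of this pair cannot be told apart. The third, Zm00001eb219270, had 2682, 2928 and 2852 with Zip1 and 1044, 1252 and 1359 in mock leaves (log2 fold change 1.21, SE 0.24, adjusted p = 0.0467). Both tested UDP-glucose 6-dehydrogenases, which open the route to UDP-xylose and UDP-arabinose, rose. Zm00001eb214560 had 3127, 5458 and 4018 with Zip1 and 1036, 1455 and 1922 in mock leaves (log2 fold change 1.51, SE 0.26, adjusted p = 0.0285), and Zm00001eb057810 had 2567, 3184 and 2938 with Zip1 and 1273, 1311 and 1698 in mock leaves (log2 fold change 1.02, SE 0.16, adjusted p = 0.0223). Zm00001eb203240, described as the arabinosyltransferase XAT2, had 994, 1013 and 961 with Zip1 and 511, 459 and 419.5 in mock leaves (log2 fold change 1.09, SE 0.17, adjusted p = 0.021). In the direct test all of these but Zm00001eb049970 were higher with Zip1 than with SA, with log2 fold changes of 1.21, 1.43, 2.00, 1.08 and 0.89 (adjusted p = 0.0123, 0.00851, 0.00237, 0.00478 and 0.0164).

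A second set chosen after values were seen were methyltransferases described as 5-pentadecatrienyl resorcinol O-methyltransferase, an enzyme of sorgoleone synthesis in sorghum. All 4 tested genes of that name were higher at an unadjusted p under 0.05, and 2 neighbours on chromosome 1 rose. Zm00001eb018660 had 1977, 1825 and 1459.6 normalised counts with Zip1 and 200.4, 381 and 181 in mock leaves (log2 fold change 2.79, SE 0.29, adjusted p = 0.00753), and Zm00001eb018640 had 756, 931 and 426 with Zip1 and 126, 152 and 63.0 in mock leaves (log2 fold change 2.63, SE 0.37, adjusted p = 0.0166). Genes described as AAA-ATPases of any name rose in 3 of 16 tested, and the risen ones had the names At3g28580 or ASD. Zm00001eb302560 had 2487, 3124 and 2203 with Zip1 and 600.0, 708 and 831 in mock leaves (log2 fold change 1.87, SE 0.24, adjusted p = 0.0124); it overlaps Zm00001eb302570, also called, on the opposite strand, and reads of this pair cannot be told apart. Zm00001eb033140 had 1673, 2477 and 1571 with Zip1 and 676, 780.4 and 628 in mock leaves (log2 fold change 1.46, SE 0.22, adjusted p = 0.0196).

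In all, 14 pairs of called genes lay within 5 places of each other along a chromosome, 6 of them with the same protein entry, and 12 moved in the same direction. Since 190 of the 204 called genes were higher, most pairs of called genes share a direction wherever they lie. In 5 of the 14 pairs, all with the same entry, the genes overlap on opposite strands. Over all called genes 32 overlap another gene and 39 share their entry with a gene within 5 places, so that the authors' counting may have divided reads between them. Of the genes named above this holds for overlap in Zm00001eb296220, Zm00001eb106850, Zm00001eb240970, Zm00001eb426900, Zm00001eb368900, Zm00001eb122610, Zm00001eb293660, Zm00001eb015800, Zm00001eb323640, Zm00001eb118350 and Zm00001eb165560, besides the pairs already given.

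The direct test of Zip1 against SA set the levels of these genes beside those in leaves given the hormone. Of all genes tested, 359 (1.56%) had a higher level in Zip1 leaves than in SA leaves, and 590 (2.56%) a lower one. Of the 190 genes that rose with Zip1 against mock, 43 were higher than in SA leaves, 42 were lower, and 105 were not called between them. A missed threshold does not show that the levels were alike. Of the 14 that fell, 6 were lower than in SA leaves and 8 were not called. Both comparisons share the Zip1 libraries. By list, 4 of 6 called leucine-rich repeat kinases were higher with Zip1 than with SA, both called MYB factors and both called phosphate genes as well. Both glutathione S-transferases, the DMR6-like oxygenase, NPR4 and 4 of 8 large chaperones were lower with Zip1 than with SA.

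The Zip1 libraries were not equally often the highest of their group among the genes that rose. Among the 42 genes that rose with Zip1 and were lower than in SA leaves, replicate 2 was the highest Zip1 library in 31, replicate 1 in 5 and replicate 3 in 6. Its median share of the Zip1 mean over these genes was 1.27, against 0.902 for replicate 1 and 0.871 for replicate 3. Among the 105 risen genes with no call against SA, replicate 2 was the highest in 61, replicate 1 in 27 and replicate 3 in 17. Among the 43 genes higher than in SA leaves, replicate 2 was the highest in 16, replicate 1 in 9 and replicate 3 in 18. Over all tested genes the 3 libraries were the highest in 7724, 7912 and 7441.

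**Figure D5:**
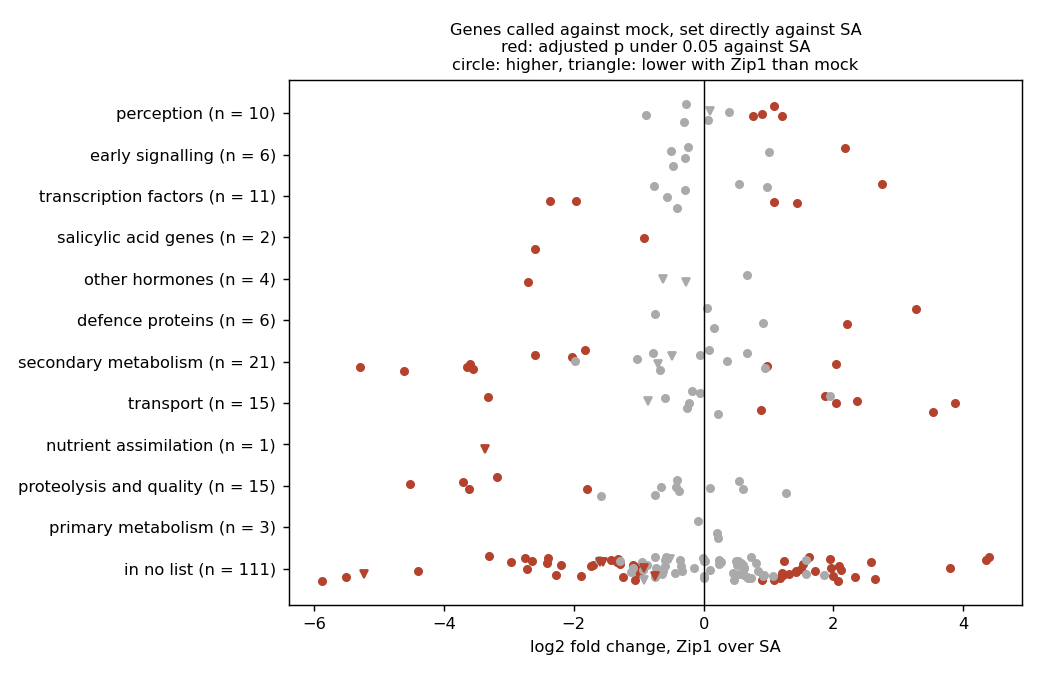
Each point is a gene called against mock, placed by its log2 fold change, Zip1 over SA (x axis), in the role of its list (rows), with red for an adjusted p under 0.05 against SA, circles for genes higher and triangles for genes lower with Zip1 than mock. Perception genes called against SA lie to the right of 0, secondary metabolism genes called against SA lie on both sides with the farthest point near −5, and 113 of the 204 genes are grey.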

How the data were processed

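Leaf mRNA of 9 libraries was sequenced. The deposited table holds raw read counts per gene. Per the submitters' processing notes, the tools were HISAT2 2.0.5, featureCounts 1.5.0-p3 and DESeq2 1.20.0, with no roles or order given. The genome build and the strand setting of the counting are not given in the sources used here. A second deposited table of normalised values was not used, because its decimal points were lost. No gene sequence was used, and 1 gene is not reported here. Total counts per library were 29427404 to 32134062 with Zip1, 28840453 to 38794412 with SA and 30242293 to 31924387 in mock leaves. Replicates differed by far more than sampling noise (chi-square per degree of freedom 47.65 to 105.2).

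Counts were tested with edgeR 4.0.16 in R 4.3.3 (quasi-likelihood F test, robust, TMM scaling, filterByExpr) in 1 fit to all 9 libraries with no covariate. P-values were adjusted by Benjamini-Hochberg over 23077 genes. Standard errors are the log2 fold change over the root of F and are approximate. Normalised counts are counts over the effective library size times its mean. Where all mock libraries held at most 3 reads, a lower bound of the fold was computed against 3 reads, which covers counting error only. Alternatives were RLE scaling, no filter, DESeq2 1.42.0, the 6 libraries alone, a replicate block, non-robust estimation and leaving out each library. The procedure was tested on simulated data.

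Members and gene lists were chosen with earlier results of these data known, and the JAZ and S-domain lists were changed after values were seen. Named genes are up to 2 called members per list and direction with the lowest p, every described gene that fell, the 10 called genes highest per kilobase and the 5 highest with mock at or under 3 reads.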

Additional observations from a re-analysis of the deposited data

How the results depend on the processing

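For Zip1 against mock, DESeq2's Wald test called 930 genes and the fit with the replicate number as a block 574, against 204, and an adjusted p under 0.01 left 4. For Zip1 against SA those settings gave 2037, 1553 and 296, against 949. Leaving out each library in turn gave 0 to 243 genes for Zip1 against mock and 456 to 960.0 for Zip1 against SA. DESeq2 without mock replicate 1, chosen after seeing the data, gave 550 and 1947. By list, the replicate block and DESeq2 called 8 and 7 small heat shock proteins against 1, 6 and 11 ERF and AP2 factors against 1, 9 and 13 glutathione S-transferases against 2, and 3 and 6 JAZ repressors against 1. The causes were not tested. RLE scaling, no filter on low counts, the 6 libraries alone and non-robust estimation gave 179, 270.0, 189 and 193 genes for Zip1 against mock, all within 1.5 times. Of the 204 genes of the main fit these settings called 178, 199, 140 and 187, so the fit to the 6 libraries alone kept the fewest. All 204 genes kept their direction, with an unadjusted p under 0.05, in every setting run. Because they were selected in the main fit and the settings reuse its libraries, this was largely fixed in advance.

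Same-numbered Zip1 and mock libraries had correlations of deviations of 0.16, 0.0745 and 0.158, and same-numbered Zip1 and SA libraries 0.0759, 0.1565 and 0.087. Each Zip1 library correlated best with its own number in mock and in SA leaves, a hint from the data and not from the design. The labels state no pairing, so the main fit did not use the numbers. A batch shared by libraries of the same number was not tested. With 3 libraries a group, a missed threshold does not show that levels were alike.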

Other observations

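The genes of this paragraph are in no list and were chosen after their values were seen. They are single genes, and other genes with the same names did not pass. Zm00001eb068270, 1 called of 4 tested genes described as D-3-phosphoglycerate dehydrogenase, an enzyme of serine synthesis, had 3147, 3837 and 2961 normalised counts in Zip1 libraries, against 874, 804 and 1231 in mock libraries (log2 fold change 1.77, SE 0.23, adjusted p = 0.0124, edgeR). Zm00001eb004390, 1 called of 2 tested genes described as phosphoserine aminotransferase, overlaps the other of the pair on the opposite strand, so that their reads cannot be told apart, and had 1079, 1701 and 1134 with Zip1 and 591, 576 and 771 in mock leaves (log2 fold change 1.01, SE 0.20, adjusted p = 0.0466, edgeR). Zm00001eb283530, described as hexokinase-7 and 1 called of 9 tested hexokinases, an enzyme that phosphorylates glucose, had 4905, 6537 and 5878 with Zip1 and 1114, 1283 and 1489.8 in mock leaves (log2 fold change 2.16, SE 0.28, adjusted p = 0.0124, edgeR). For these 3 genes the direct test of Zip1 against SA made no call (adjusted p = 0.175, 0.446 and 0.693).

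Some risen genes were far from their level in SA leaves. Zm00001eb041390, described as ribonuclease 1, had 3839, 2429 and 2354 normalised counts with Zip1, against 340.3, 435 and 672 in SA leaves and 358, 704 and 716 in mock leaves (log2 fold change 2.58, adjusted p = 0.00236 for Zip1 against SA, edgeR). Zm00001eb300620, described as carboxylesterase 15, had 591, 255 and 609.9 with Zip1, against 21.7, 20.3 and 26.9 in SA leaves and 87.7, 82.5 and 34.5 in mock leaves (log2 fold change 4.40, adjusted p = 0.000741, edgeR). On the other side, Zm00001eb037000, described as aldo-keto reductase 2, had 680.2, 755 and 636 with Zip1, against 27701, 31697 and 62373 in SA leaves and 184, 198 and 259.9 in mock leaves (log2 fold change −5.88, adjusted p = 2.92e-05, edgeR). Zm00001eb230820, described as Bax inhibitor 1, a suppressor of cell death, had 619, 1425 and 1002 with Zip1, against 6889, 5336 and 8197 in SA leaves and 239, 404 and 328 in mock leaves (log2 fold change −2.74, adjusted p = 0.00114, edgeR).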
